A study of Chlorocebus aethiops with 36 samples.

Results

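The genes described here are 9 reported targets of the microRNA miR-33 other than the ABC sterol exporters and the bile salt pump: CROT, HADHB, CPT1A, PRKAA1, NPC1, IRS2, SIRT6, ATP8B1 and OSBPL6. They were taken by symbol. Every probe set (a group of short probes read as a single value) whose platform annotation gives exactly 1 of these symbols was taken. That gave 26 of the 54675 probe sets of the array, for 9 of 19775 genes, and 0 probe sets with several symbols held any of them. The tissue was liver, biopsied from 12 male African green monkeys and read on a human Affymetrix array, whose probes were made for human transcripts. In 6 animals anti-miR-33 was given under the skin at 5 mg/kg, and in the other 6 a control anti-miR was given at the same dose. Each animal was sampled at week -5 (baseline, before any oligonucleotide, on chow), after 4 weeks of treatment (still on chow), and at week 12, when a high carbohydrate, moderate cholesterol diet had been fed for 8 weeks. The baseline arrays are labelled untreated, and their arm follows from how the same animal was labelled later. Animals are numbered within each arm.

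A microRNA pairs through its seed with matching sites in messenger RNAs and lowers their stability or translation. An anti-miR is a chemically modified oligonucleotide that binds the microRNA and keeps it from its targets, so a target transcript can be higher where the anti-miR is present, although repression by translation alone leaves no trace in messenger RNA. miR-33 lies in introns of the SREBF genes, whose proteins switch on sterol and fatty acid synthesis, and in liver it is known for restraining cholesterol export, bile secretion and fatty acid oxidation. The 9 genes fall into 3 roles. CROT, CPT1A and HADHB act in fatty acid oxidation: CROT moves peroxisomal acyl groups onto carnitine, CPT1A loads long-chain acyl groups onto carnitine at the outer mitochondrial membrane, and HADHB is the beta subunit of the mitochondrial trifunctional protein. PRKAA1 (a catalytic subunit of AMP-activated kinase), IRS2 (an adaptor of the insulin receptor) and SIRT6 (a nuclear NAD-dependent deacylase) act in energy sensing and insulin signalling. NPC1 (lysosomal cholesterol export), OSBPL6 (an oxysterol-binding protein homologue) and ATP8B1 (a phospholipid flippase of the bile canaliculus) act in sterol and membrane lipid traffic.

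The 36 arrays, 1 for each animal and time, were alike in scale, with medians between 4.42 and 4.51 on the log2 scale, and Pearson r across probe sets between pairs of arrays ran from 0.971 to 0.993. The tissue carried its defining markers: the hepatocyte genes ALB, TTR and APOA1 averaged 13.82, 14.08 and 14.65. The week 12 array of control animal 5 stood apart. Its mean over 9 hepatocyte markers was 12.58, while the other week 12 arrays had 13.17 or more, and its highest value was 13.75. At week 4 the array of anti-miR-33 animal 5 was lower in the same measures, with a marker mean of 12.96 (13.07 or more on the other week 4 arrays) and a highest value of 14.26. The week 4 array of control animal 1 carries the high carbohydrate diet in its label, unlike the other week 4 arrays. The array numbers in the labels follow each other through baseline and week 12 and lie apart for week 4. The labels do not say what they mark, and a difference between week 4 and another time cannot be told apart from it. The difference between the 3′ and 5′ control probe sets of GAPDH and ACTB, a reading of RNA integrity, moved with time. In anti-miR-33 animals it averaged 2.70 ± 0.49, 1.96 ± 0.33 and 1.81 ± 0.17 at baseline, week 4 and week 12, and in control animals 2.44 ± 0.34, 1.93 ± 0.52 and 1.85 ± 0.16 (SD, n = 6 each). The mean of 6 endothelial markers moved likewise, at 7.24, 6.62 and 6.45 in anti-miR-33 animals and 7.33, 6.57 and 6.59 in control animals. Stellate cell markers averaged 8.09, 7.76 and 7.62 in anti-miR-33 animals and 8.00, 7.75 and 7.72 in control animals. Lymphocyte and macrophage markers were below baseline at week 4 in both arms, and blood markers at week 12. Cholangiocyte markers did not fall likewise, at 5.503, 5.508 and 5.605 in anti-miR-33 animals and 5.35, 5.335 and 5.362 in control animals. The part of these in the changes over time was not tested, except where a value is given below. In a biopsy, fewer cells of a type and less RNA per cell cannot be told apart.

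Between the arms, CROT, HADHB and OSBPL6 carried the largest differences among the 9 genes at week 12, by the probe set of highest mean. Each was then higher in anti-miR-33 animals, but none passed adjustment over all probe sets. HADHB differed by only 0.03 at week 4, and OSBPL6 differed by 0.21 at baseline already. At week 12 HADHB was 1.43-fold higher, OSBPL6 1.46-fold and CROT 1.27-fold, and at week 4 OSBPL6 was 1.66-fold and CROT 1.17-fold higher. A probe set is called where its adjusted p, from limma with Benjamini-Hochberg adjustment over all 54613 probe sets that are not array controls, is under 0.05. Of the 26 probe sets, 0 were called between the arms at baseline, at week 4 or at week 12. Of all probe sets, 0%, 0% and 0.00183% were called in these comparisons. Likewise 0 of 26 were called for a difference between arms in the change between any pair of times, against 0% of all probe sets each time; 2 of the 26 had an unadjusted p under 0.05 for each of these changes (all probe sets 4.16% up to week 4, 2.36% from baseline to week 12 and 4.11% from week 4 to week 12). An unadjusted p under 0.05 was found for 1, 3 and 3 of the 26 at baseline, week 4 and week 12, where all probe sets gave 3.67%, 5.87% and 2.68%. The groups overlapped for all 26 probe sets in each of these comparisons, and 0.176%, 0.114% and 0.135% of all probe sets had groups that did not overlap.

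Each gene was then read by the probe set of highest mean over the 36 arrays, its leading probe set. By these, 7 of the 9 genes were above 0 in the difference anti-miR-33 minus control at baseline, 6 at week 4 and 8 at week 12. The share of the leading probe sets of all genes above 0 was 50.5%, 52.1% and 50.5%. The median differences of the 9 were 0.13, 0.09 and 0.16, beside medians over all genes of 0.00, 0.01 and 0.00. The baseline figures, taken before treatment, are close to those at week 12. Over all 26 probe sets 18, 12 and 18 lay above 0, with medians of 0.06, -0.01 and 0.07. Of the 26, 10 lay in the lower part of the array by mean level, under the array-wide median of 4.458.

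**Figure D1:**
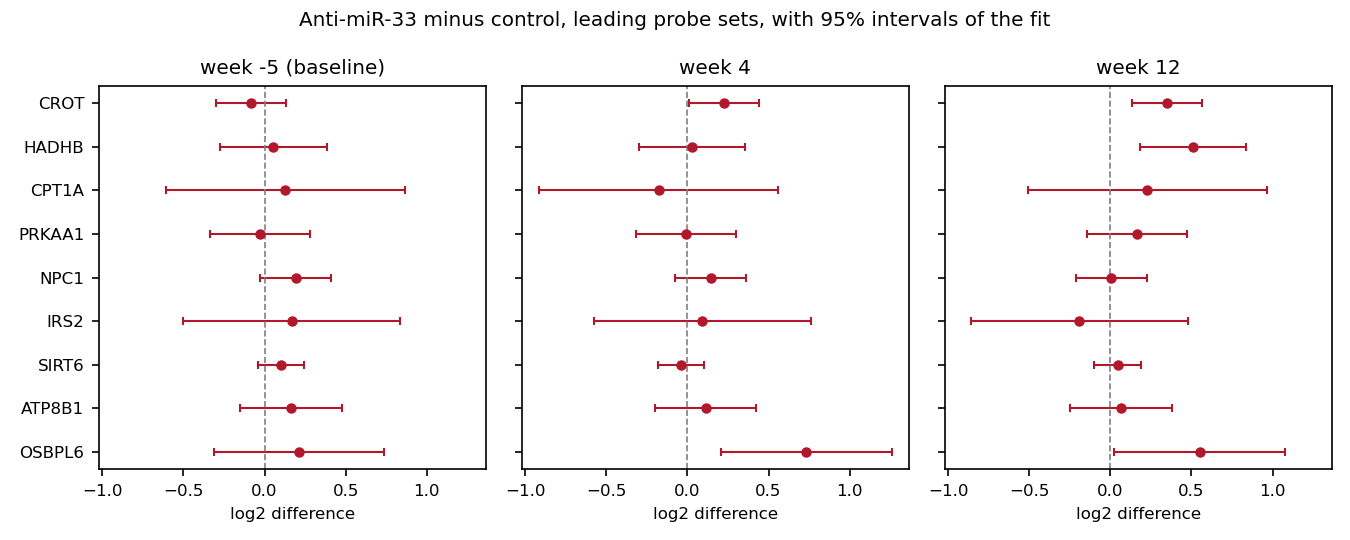
Difference between arms, anti-miR-33 minus control, in log2 units for the leading probe set of each of the 9 genes at baseline, week 4 and week 12. Points are differences of means over 6 animals each and lines are 95% intervals from the limma fit. HADHB, CROT and OSBPL6 at week 12, and CROT and OSBPL6 at week 4, have intervals above 0.

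CROT was higher in anti-miR-33 animals after treatment and not before it. At baseline its lowest, median and highest log2 values were 8.12, 8.21 and 8.40 in anti-miR-33 animals and 8.05, 8.32 and 8.71 in control animals. At week 4 they were 8.31, 8.41 and 8.85 in anti-miR-33 animals and 8.03, 8.26 and 8.50 in control animals. At week 12 they were 8.26, 8.71 and 9.02 in anti-miR-33 animals and 8.08, 8.28 and 8.63 in control animals. At week 12, 4 anti-miR-33 animals lay above every control animal, and the groups overlapped through anti-miR-33 animals 1 and 4 and control animals 1, 3, 4 and 5. CROT differed between arms by -0.08 ± 0.11 at baseline (SE), 0.23 ± 0.11 at week 4 (95% interval 0.01 to 0.44, adjusted p = 0.84) and 0.35 ± 0.11 at week 12 (0.13 to 0.56, adjusted p = 0.999). An exact permutation test (two-sided, exchanging arms among the 12 animals), which is not adjusted over genes and cannot give less than 0.00216, gave p = 0.478, 0.0519 and 0.0281 at these times.

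Followed within animals, CROT rose in the anti-miR-33 arm. The change from baseline to week 12 was 0.43 ± 0.20 in anti-miR-33 animals and 0.00 ± 0.21 in control animals (SD, n = 6 each). All 6 anti-miR-33 animals were higher at week 12, while control animals were split with 3 higher and 3 lower. The rise in anti-miR-33 animals was 1.35-fold (log2 change 0.43 ± 0.10 SE, 95% interval 0.23 to 0.64, adjusted p = 0.00651), and it was called without any one of the 12 animals, at 0.40 to 0.50. With the 3′ minus 5′ value as a covariate it was 0.49 and not called (adjusted p = 0.121). The change in control animals was 0.00 ± 0.10 (-0.20 to 0.21, adjusted p = 0.994). A call in one arm and none in the other is not a test of the difference, which was 0.43 ± 0.14 (0.14 to 0.72) with an unadjusted p of 0.00478, an adjusted p of 0.999 and an exact permutation p of 0.00866. Up to week 4 the change was 0.23 ± 0.17 in anti-miR-33 animals and -0.08 ± 0.14 in control animals (SD). That is a difference of 0.31 ± 0.14 (SE, adjusted p = 0.998, exact permutation p = 0.00866). Both other CROT probe sets had means under that median, and their differences between arms ran from -0.13 to 0.06.

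HADHB differed more between the arms at week 12 than at the earlier times. At baseline its lowest, median and highest values were 7.97, 8.48 and 8.65 in anti-miR-33 animals and 8.04, 8.38 and 8.73 in control animals. At week 4 they were 7.87, 8.21 and 8.32 in anti-miR-33 animals and 7.48, 8.20 and 8.57 in control animals. At week 12 they were 8.31, 8.49 and 8.80 in anti-miR-33 animals and 7.63, 7.82 and 8.65 in control animals. At week 12, 4 control animals lay between 7.63 and 7.90, below every anti-miR-33 animal, and control animals 2 and 6 lay within the range of the anti-miR-33 group. At baseline and week 4 the arms differed by 0.06 and 0.03, and at week 12 by 0.51 ± 0.16 (95% interval 0.18 to 0.84, unadjusted p = 0.00308, adjusted p = 0.999, exact permutation p = 0.0368). Without any one animal the week 12 difference ran from 0.44 to 0.64, and without the week 12 array of control animal 5 it was 0.44. Hepatocyte and macrophage markers at the same time, as untested differences between arms, each lay mostly to one side of 0. At week 12, 9 of 9 hepatocyte markers were above 0 (median 0.15, and 8 of 9 with a median of 0.02 without that array). Of the macrophage markers 0 of 6 were (median -0.12). By list mean, cholangiocyte markers (5.605, and 5.362 in control animals) and muscle markers were also higher in anti-miR-33 animals. Lymphocyte, endothelial, stellate cell, blood and fat markers were lower. The part of all these markers in the HADHB difference was not tested.

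The HADHB values of the arms moved apart between week 4 and week 12. That change was 0.36 ± 0.20 in anti-miR-33 animals, higher in 6 of 6, and -0.13 ± 0.32 in control animals (SD, n = 6 each). The difference in this change was 0.48 ± 0.22 (SE, adjusted p = 0.998, exact permutation p = 0.00433) and 0.38 to 0.55 without any one animal. In this contrast 9 of 9 hepatocyte markers were above 0 (median 0.19), against 7 of 9 (median 0.08) without the week 12 array of control animal 5, and 0 of 6 macrophage markers were (median -0.33). The part of these markers was not tested here either. Between baseline and week 12 the change was 0.09 ± 0.33 in anti-miR-33 animals and -0.37 ± 0.29 in control animals, lower in 5 of 6 of the control animals. The difference between these changes was 0.46 ± 0.22 (adjusted p = 0.999, exact permutation p = 0.0152). Neither within-arm change was called in the limma fit with animal as a random block. With animal as a fixed block the change from week 4 to week 12 in anti-miR-33 animals (adjusted p = 0.166) and that from baseline to week 12 in control animals (adjusted p = 0.236) were both called, with adjusted p = 0.0408 and 0.0469. At week 4 HADHB was below baseline in 11 of 12 animals, with a mean change of -0.25 ± 0.11 (adjusted p = 0.0849, and 0.0134 with animal as a fixed block). Without the week 4 array of control animal 1 this change was -0.30 and called (adjusted p = 0.0418). HADHB has 1 probe set on the array.

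**Figure D2:**
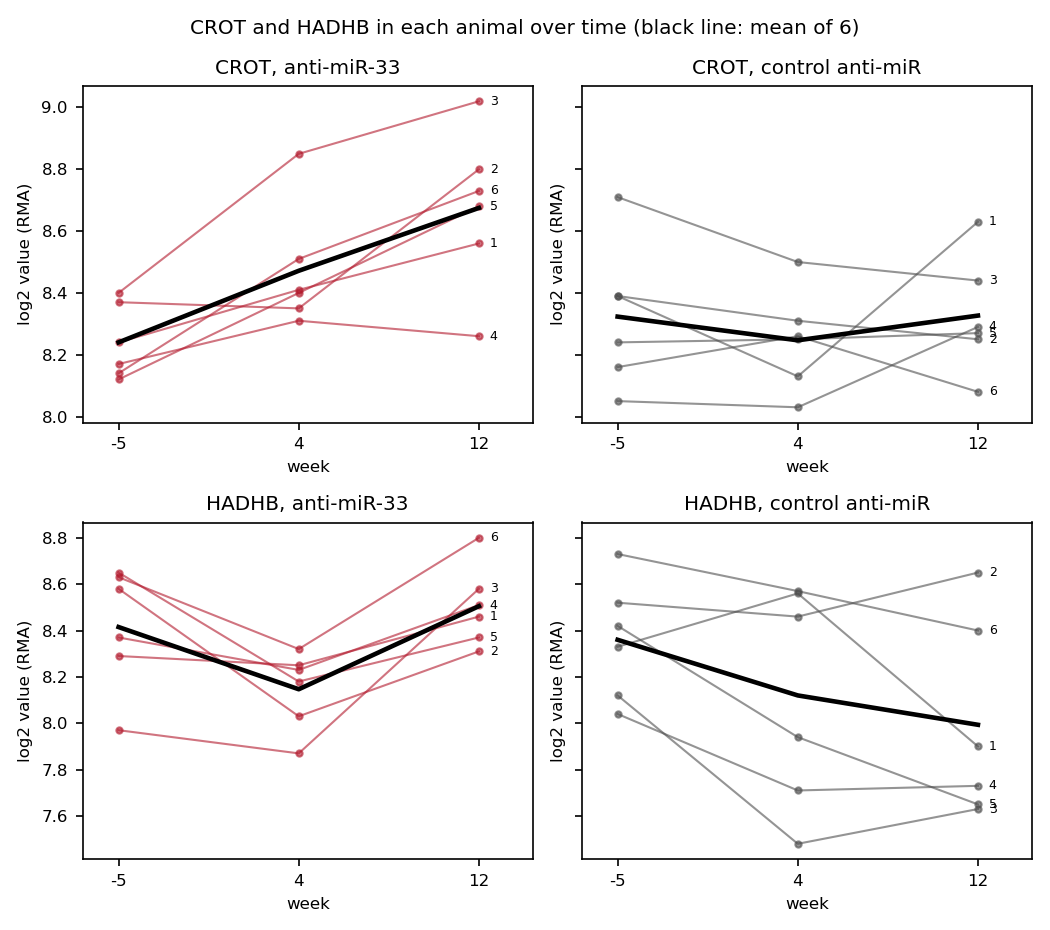
CROT and HADHB over time in each animal, in log2 units, at baseline, week 4 and week 12, with anti-miR-33 and control animals drawn apart. Each coloured line is an animal numbered within its arm, and the black line is the mean of 6 animals. CROT was higher at week 12 than at baseline in 6 of 6 anti-miR-33 animals and 3 of 6 control animals, and HADHB was higher at week 12 than at week 4 in 6 of 6 anti-miR-33 animals.

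CPT1A had the widest spread of the 9 genes, with an SD of 0.71 over the 36 arrays, and no difference between the arms was detectable. At week 12 its lowest, median and highest values were 5.82, 6.56 and 7.20 in anti-miR-33 animals and 5.48, 6.23 and 6.81 in control animals. CPT1A differed between arms by 0.13, -0.18 and 0.23 at baseline, week 4 and week 12 (SE 0.36 each), and the 95% interval at week 12 ran from -0.51 to 0.96. Those intervals hold both no difference and the size seen for HADHB. The probe sets 203634_s_at and 210688_s_at of CPT1A were lower at week 4 than at baseline in 6 of 6 anti-miR-33 animals, by -0.43 and -0.42, without passing adjustment (adjusted p = 0.412 and 0.126). Between arms the first of them differed by -0.47 at week 4, without a call, and all 3 other CPT1A probe sets ran from -0.47 to 0.33 over the 3 times. Across the 36 arrays they followed the leading probe set with r = 0.659 and 0.678. These arrays share animals and times, so this and every correlation below is a description.

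PRKAA1 did not separate the arms at any time, with differences of -0.03, -0.01 and 0.16 at baseline, week 4 and week 12 (SE 0.15 each). It rose between week 4 and week 12 over both arms. At week 12 its lowest, median and highest values were 5.30, 5.61 and 6.11 in anti-miR-33 animals and 5.09, 5.55 and 5.80 in control animals. Week 4 values were 4.95, 5.25 and 5.54 in anti-miR-33 animals and 4.90, 5.06 and 5.88 in control animals. The values of both times overlapped within each arm. Of 12 animals 10 were higher at week 12, and the mean change was 0.33 ± 0.10 (1.25-fold, adjusted p = 0.0259). The call was lost without anti-miR-33 animal 2 (0.28, adjusted p = 0.0706), control animal 4 (adjusted p = 0.0682) or control animal 6 (0.32, adjusted p = 0.0512). By arm the change was 0.41 ± 0.15 in anti-miR-33 animals (adjusted p = 0.0837, and 0.0412 with animal as a fixed block) and 0.24 in control animals (adjusted p = 0.386). The probe set 225985_at of PRKAA1, also above the array-wide median, had a mean change of 0.08. It went from 4.698 to 4.898 in anti-miR-33 animals, and from 4.865 to 4.817, thus not higher, in control animals. Between arms the other 4 PRKAA1 probe sets differed by -0.17 to 0.11, and at week 12 1555177_at and 214917_at lay at -0.06 and -0.04 while the others lay above 0.

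IRS2 varied widely within each group, and it was called neither between the arms nor over time. At week 12 its lowest, median and highest values were 9.22, 9.77 and 10.91 in anti-miR-33 animals and 9.36, 10.12 and 11.68 in control animals. At week 4 they were 9.11, 9.81 and 11.62 in anti-miR-33 animals and 9.20, 9.88 and 10.66 in control animals. The top values were those of anti-miR-33 animal 4 at week 4 and control animal 2 at week 12. IRS2 differed between arms by 0.17, 0.09 and -0.19 at baseline, week 4 and week 12 (SE 0.33 each), with a 95% interval at week 12 from -0.86 to 0.48. From baseline to week 12 it differed by 0.02 in anti-miR-33 animals, higher in 3 of 6, and by 0.38 in control animals, higher in 5 of 6 (adjusted p = 0.673). The other IRS2 probe set followed the leading one across the arrays with r = 0.897 and differed between arms by 0.15, 0.24 and -0.28.

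SIRT6 was higher at week 4 than at both other times, with the smallest adjusted p of the 26 probe sets in any change over time. At baseline its lowest, median and highest values were 6.38, 6.58 and 6.63 in anti-miR-33 animals and 6.18, 6.46 and 6.61 in control animals. At week 4 they were 6.64, 6.83 and 6.86 in anti-miR-33 animals and 6.72, 6.86 and 6.94 in control animals. At week 12 they were 6.45, 6.56 and 6.83 in anti-miR-33 animals and 6.45, 6.54 and 6.62 in control animals. Every week 4 value lay above every baseline value, which held for 0.43% of all probe sets in either direction. The week 12 medians lay near those of baseline. Arms differed by 0.10, -0.04 and 0.04 at these times (SE 0.07 each).

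Up to week 4 SIRT6 rose 1.26-fold over both arms (0.33 ± 0.05, higher in 12 of 12 animals, adjusted p = 2.82e-06), and the exact permutation of signs gave the smallest p it can give, 0.000488. With the 3′ minus 5′ value as a covariate the change was 0.32 (adjusted p = 3.89e-04). The rise was 0.26 ± 0.07 in anti-miR-33 animals (adjusted p = 0.0103) and 0.40 ± 0.07 in control animals (adjusted p = 1.31e-04). In anti-miR-33 animals the call was lost without animal 5 (0.22, adjusted p = 0.0674) and with the covariate (0.25, adjusted p = 0.0632). SIRT6 then fell by 0.26 over both arms to week 12 (SE 0.05, lower in 12 of 12 animals, adjusted p = 3.18e-04). The change was -0.21 ± 0.07 in anti-miR-33 animals (adjusted p = 0.0531) and -0.30 ± 0.07 in control animals (adjusted p = 0.0109). These changes cannot be told apart from what sets the week 4 array numbers apart. The other SIRT6 probe set, 219613_s_at, also rose to week 4 over both arms (0.28 ± 0.07, 10 of 12 animals, adjusted p = 0.00562). Its change was 0.15 in anti-miR-33 animals (adjusted p = 0.393) and 0.41 ± 0.11 in control animals (adjusted p = 0.0105). It differed between arms by 0.24, -0.02 and 0.08 at baseline, week 4 and week 12. Its means at week 4 and week 12 were 6.04 and 5.96 in anti-miR-33 animals and 6.06 and 5.88 in control animals. This later fall was not called in either arm or over both arms. Across the arrays the SIRT6 probe sets had r = 0.436, and -0.01 after group means were taken away.

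**Figure D3:**
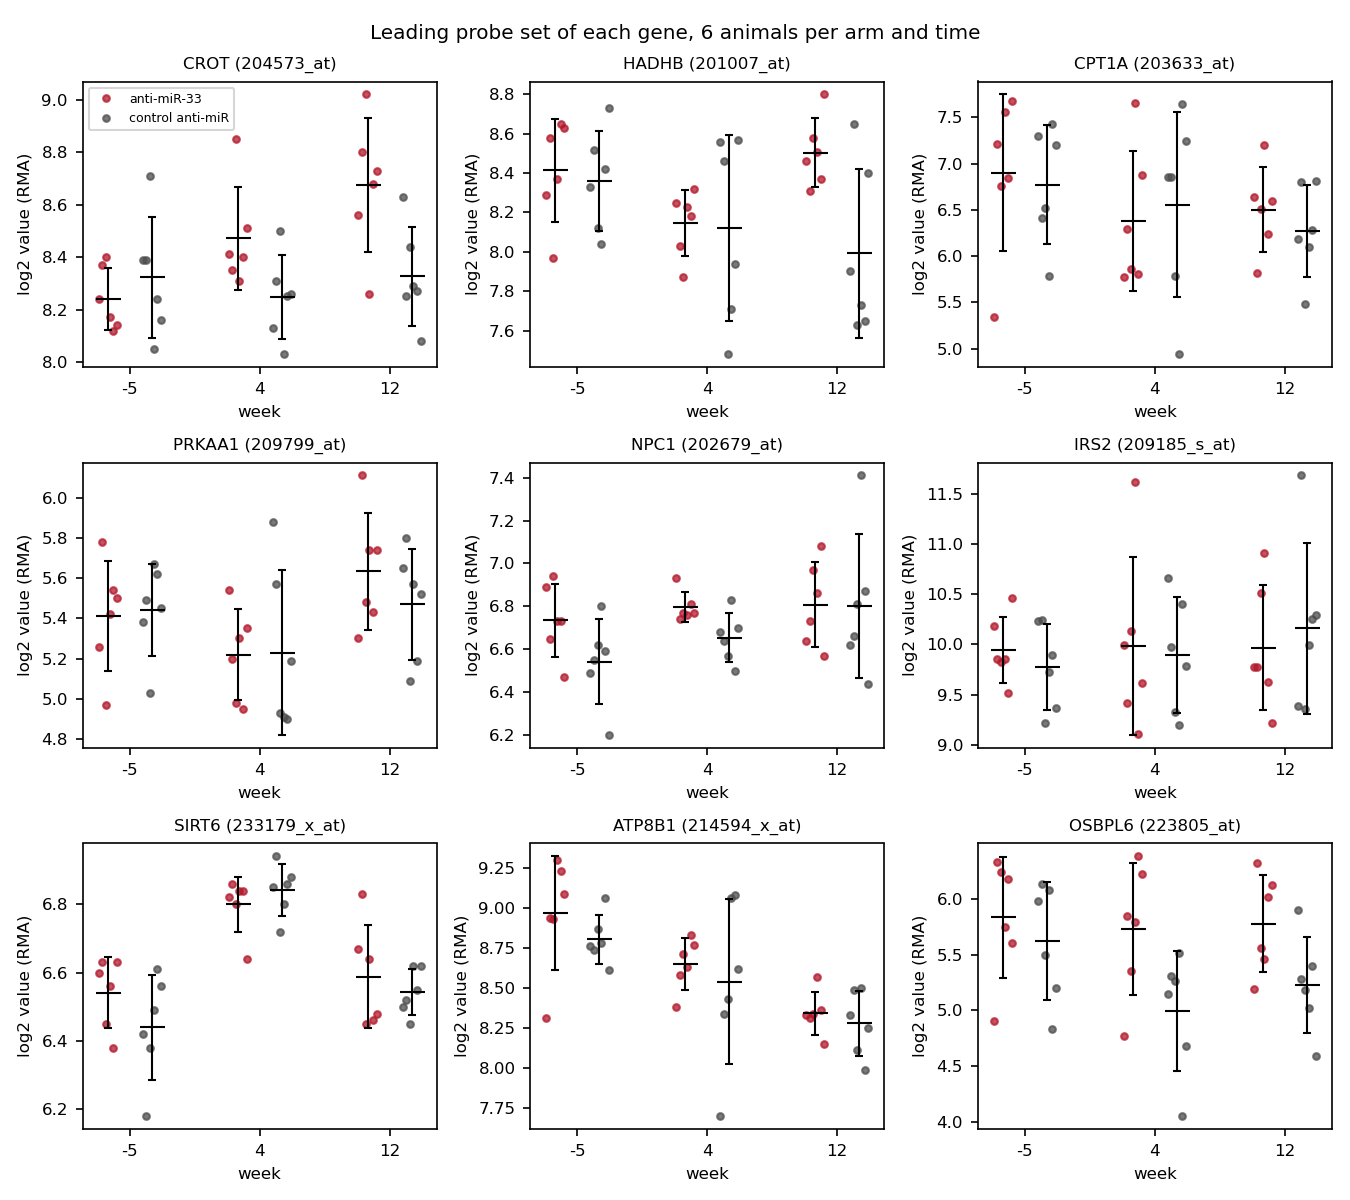
Log2 values of the leading probe set of each of the 9 genes at baseline, week 4 and week 12. Each point is an animal, anti-miR-33 left of control at each time, and bars show the mean ± SD of 6 animals. SIRT6 lies higher at week 4 than at baseline in both arms, ATP8B1 lies lower at week 12 than at baseline, and HADHB of 4 control animals lies below the anti-miR-33 animals at week 12.

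NPC1 differed little between the arms. At week 4 its lowest, median and highest values were 6.74, 6.77 and 6.93 in anti-miR-33 animals and 6.50, 6.66 and 6.83 in control animals, and the groups overlapped. NPC1 differed by 0.19, 0.14 and 0.01 at baseline, week 4 and week 12 (SE 0.11 each), and the week 4 value had an adjusted p of 0.921 and an exact permutation p of 0.0303. The difference was thus no larger after treatment than before it by these values. Against baseline, NPC1 at week 12 differed by 0.07 in anti-miR-33 animals and by 0.26 ± 0.10 in control animals, where it was higher in 6 of 6 (adjusted p = 0.197). The other 3 NPC1 probe sets had means between 3.29 and 3.48, under the array-wide median, and differed between arms by -0.07 to 0.09, with either sign.

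OSBPL6 had the largest difference between arms of the 9 genes at week 4. At baseline its lowest, median and highest values were 4.90, 5.97 and 6.33 in anti-miR-33 animals and 4.83, 5.74 and 6.13 in control animals. At week 4 they were 4.77, 5.82 and 6.38 in anti-miR-33 animals and 4.05, 5.21 and 5.51 in control animals. At week 12 they were 5.19, 5.79 and 6.32 in anti-miR-33 animals and 4.59, 5.23 and 5.90 in control animals. At week 4, 4 anti-miR-33 animals lay above every control animal, and anti-miR-33 animals 1 and 3 lay within the control range. OSBPL6 differed between arms by 0.21 ± 0.26 at baseline, 0.73 ± 0.26 at week 4 (95% interval 0.21 to 1.26, unadjusted p = 0.00743, adjusted p = 0.713, exact permutation p = 0.0541) and 0.55 ± 0.26 at week 12 (0.03 to 1.07, adjusted p = 0.999, exact permutation p = 0.0498). Without any one animal the difference ran from 0.54 to 0.92 at week 4 and from 0.42 to 0.68 at week 12. Without the week 4 array of anti-miR-33 animal 5, the highest OSBPL6 value at that time, it was 0.61.

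Control animals had lower OSBPL6 values at week 4 than at baseline. The change was -0.11 in anti-miR-33 animals, with 3 higher and 3 lower, and -0.63 ± 0.25 in control animals, lower in 6 of 6 (adjusted p = 0.102, and 0.0167 with animal as a fixed block). The difference in this change was 0.52 ± 0.35 (exact permutation p = 0.0541). Both other OSBPL6 probe sets were also higher in anti-miR-33 animals at week 4, by 0.24 and 0.17, and at week 12, by 0.10 and 0.16, without a call. Both were low, however. The former had a mean of 4.46, close to the array-wide median, and the latter a mean of 3.26, under it.

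ATP8B1, by its leading probe set 214594_x_at, fell over time in both arms and did not separate them. At baseline its lowest, median and highest values were 8.31, 9.02 and 9.30 in anti-miR-33 animals and 8.61, 8.77 and 9.06 in control animals. The week 4 values were 8.38, 8.67 and 8.83 in anti-miR-33 animals and 7.70, 8.53 and 9.08 in control animals. At week 12 they were 8.15, 8.34 and 8.57 in anti-miR-33 animals and 7.99, 8.29 and 8.50 in control animals. In control animals the values at week 12 and baseline did not overlap, which held for 1.74% of all probe sets, and in anti-miR-33 animals they overlapped through the low baseline array of animal 1. ATP8B1 differed between arms by 0.16, 0.11 and 0.07 at baseline, week 4 and week 12 (SE 0.15 each). By week 12 ATP8B1 had fallen 1.54-fold in anti-miR-33 animals (-0.62 ± 0.15, 5 of 6 animals, adjusted p = 0.00712) and 1.44-fold in control animals (-0.53 ± 0.15, 6 of 6 animals, adjusted p = 0.0396). The anti-miR-33 call was lost without animal 6 (-0.56, adjusted p = 0.0545). The control call was lost without any one of 7 animals: control animals 2 (-0.58, adjusted p = 0.058), 3 (-0.48, 0.211), 5 (-0.42, 0.208) and 6 (-0.56, 0.0525), and anti-miR-33 animals 2, 3 and 5 (adjusted p 0.0506 to 0.0555). Without the week 12 array of control animal 5 alone it was -0.45 (adjusted p = 0.122).

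This fall of ATP8B1 moved with the 3′ minus 5′ value. Across the 36 arrays 214594_x_at followed that value with r = 0.845, and with r = 0.775 after group means were taken away, the highest of the 26 probe sets. With the value as a covariate the change from baseline to week 12 was -0.07 in anti-miR-33 animals (adjusted p = 0.934), -0.16 in control animals (adjusted p = 0.691) and -0.11 over both arms (adjusted p = 0.693). The mean change from baseline to week 4, -0.29 ± 0.10 (adjusted p = 0.037), was called without any one animal in only 4 of 12 fits and was 0.10 with the covariate. The other ATP8B1 probe set, 226302_at, did not follow the leading one, with r = -0.39 between them. It ran against the 3′ minus 5′ value, with r = -0.481, and -0.601 after group means were taken away. Its changes are given without the covariate. At week 12 this probe set was higher than at baseline in 6 of 6 anti-miR-33 animals (0.33, adjusted p = 0.331) and in 3 of 6 control animals (-0.02, adjusted p = 0.978). Between arms it differed by -0.14, -0.09 and 0.21 at baseline, week 4 and week 12. The suffix _x_at marks probe sets whose probes may match several transcripts. Of the 50 probe sets whose pattern lay nearest to 214594_x_at, 45 carried that suffix, against 7.52% of the 13625 candidates. The leading SIRT6 probe set also carries it, with 9 among its nearest 50.

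**Figure D4:**
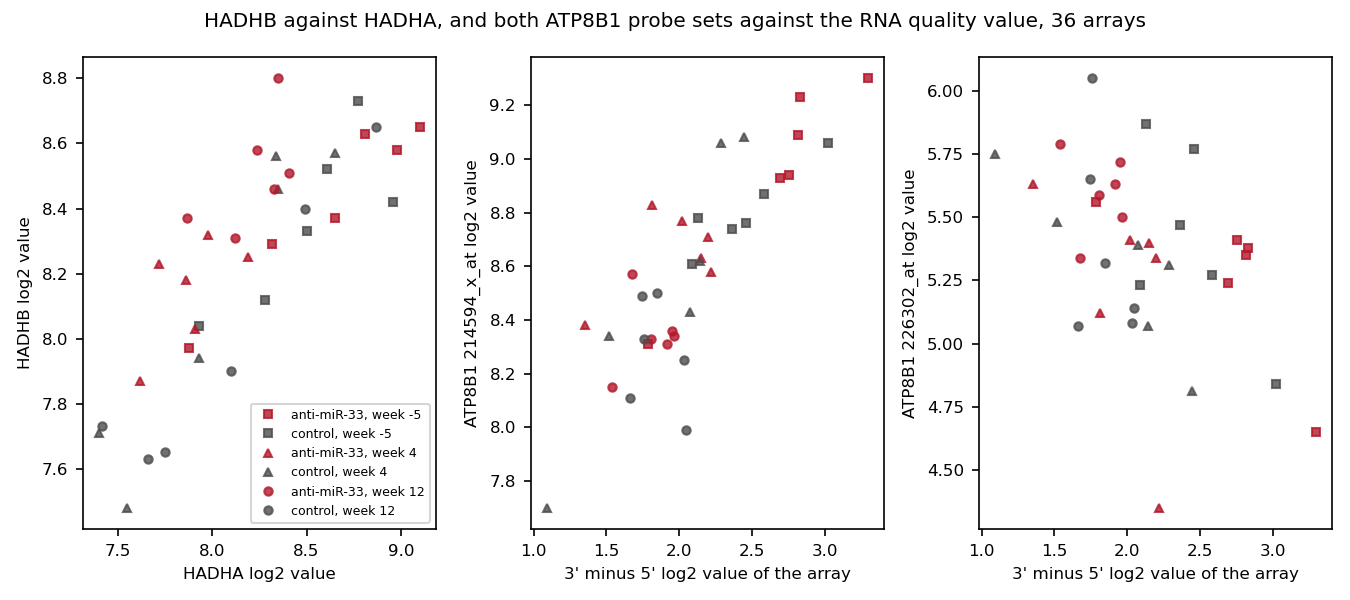
Relations across the 36 arrays, in log2 units: HADHB against HADHA, and the ATP8B1 probe sets 214594_x_at and 226302_at against the 3′ minus 5′ value of GAPDH and ACTB. Points are arrays, coloured by arm. HADHB followed HADHA with r = 0.828, 214594_x_at followed the 3′ minus 5′ value with r = 0.845, and 226302_at had r = -0.481.

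Calls over time among the 26 were set against the shares of all probe sets, and these counts are small. From baseline to week 4, 1 of 26 was called in anti-miR-33 animals, 2 in control animals and 3 over both arms, while 11%, 9.9% and 25.1% of all probe sets were called. Between baseline and week 12 there were 2 in anti-miR-33 animals, 1 in control animals and 2 over both arms, against 6.11%, 3.1% and 12.3%. From week 4 to week 12 there were 0 in anti-miR-33 animals, 1 in control animals and 2 over both arms, against 5.8%, 3.47% and 16.7%. For the 0, 8 of 26 had an unadjusted p under 0.05, against 21.5% of all probe sets. The shares of the 26 that were called lie near or below the background of these comparisons. Of the 8 by unadjusted p, 4 were leading probe sets, and probe sets of the same gene are not independent. The share of the 8 was above the 21.5%, but the count is too small to read as a trait of the 9 genes.

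**Figure D5:**
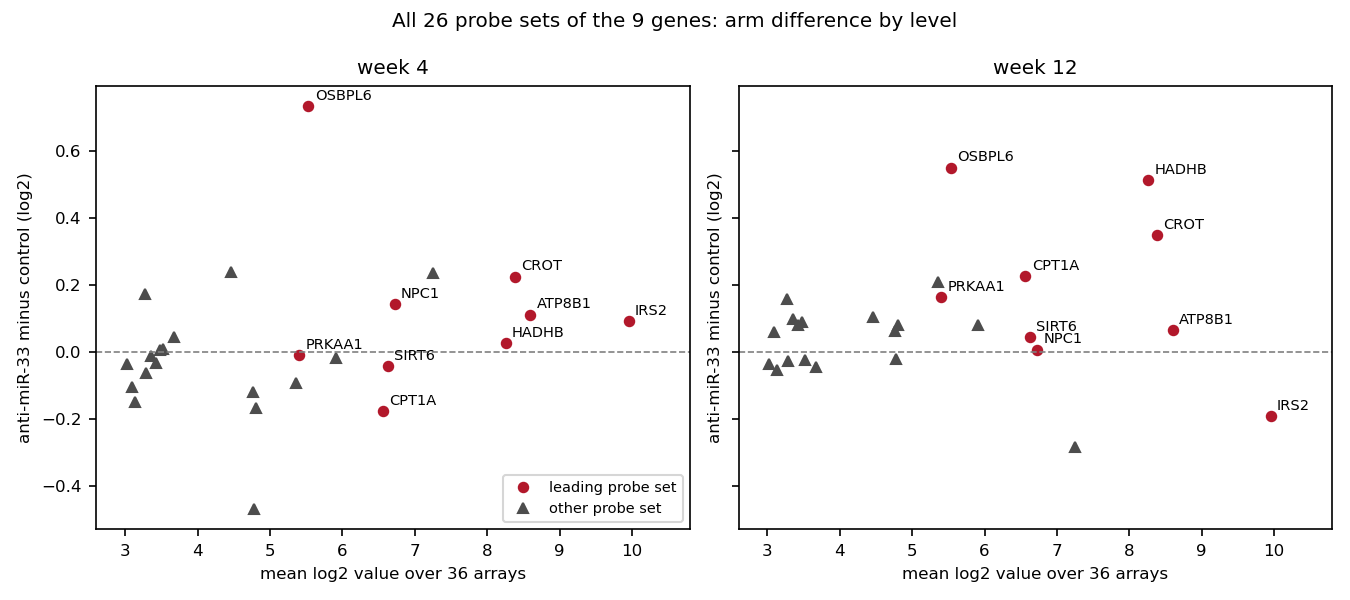
Difference between arms, anti-miR-33 minus control in log2 units, against the mean log2 value over 36 arrays for all 26 probe sets at week 4 and week 12. Circles are the 9 leading probe sets and triangles the other 17. Probe sets with a mean under 4.458, the array-wide median, differed by -0.15 to 0.17, and HADHB, OSBPL6 and CROT at week 12 and OSBPL6 at week 4 lie highest, at 0.51, 0.55, 0.35 and 0.73.

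Genes of the same pathways were counted by their leading probe sets, and 0 of any list were called between the arms at week 4 or week 12. Among 14 mitochondrial fatty acid oxidation enzymes 6 were above 0 at week 4 and 11 at week 12, with medians of -0.07 and 0.09. Without the week 12 array of control animal 5 the count at week 12 was 8 and the median 0.01. Of the hepatocyte markers 3 of 9 were above 0 at week 4 and 9 of 9 at week 12, and of the macrophage markers 4 of 6 and 0 of 6. The part of these markers in the enzyme counts was not tested. At week 12, 2 of the enzymes had an unadjusted p under 0.05, HADHB and DECR1 (an auxiliary enzyme for unsaturated fatty acids, 0.19). HADHA, the alpha subunit and partner of HADHB, differed by 0.17 ± 0.20. Of 7 carnitine acyltransferases and carriers measured, 2 were above 0 at week 4 and 5 at week 12, with medians of -0.07 and 0.10 (4 and 0.02 at week 12 without that array), and CPT2 and SLC25A20 differed by 0.12 and 0.10 at week 12. Of 12 members of the oxysterol-binding protein family 8 were above 0 at both times, with a median of 0.06. The cholesterol exporter ABCA1, an established miR-33 target, differed by 0.55 ± 0.16 at week 4 (adjusted p = 0.603) and 0.24 ± 0.16 at week 12.

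These lists held calls over time. Over both arms, 12.3% of all probe sets were called from baseline to week 12 and 25.1% from baseline to week 4. These shares are not matched to the lists, which were read by leading probe sets only. With 1 probe set per gene, after the filter on low means, 3739 of 13634 were called from baseline to week 12. From baseline to week 4 it was 4871 of 13634. Whether any list held more calls than such a background was not tested. Between baseline and week 12, over both arms, 2 of the 14 mitochondrial oxidation enzymes rose (DECR1 by 0.25 and ETFA by 0.21) and 6 fell, among them ACAA2 (-0.55), ETFB (-0.44) and ACADS (-0.36). Of the 7 carnitine genes CROT rose (0.22 ± 0.07, 9 of 12 animals, adjusted p = 0.0378) and the carnitine importer SLC22A5 fell (-0.26). By arm the CROT change was 0.435 in anti-miR-33 animals and 0.003 in control animals. This CROT call over both arms was lost without any one of 7 of the 12 animals, anti-miR-33 animals 2, 3, 5 and 6 and control animals 1, 4 and 5 (0.20 to 0.22, adjusted p 0.0538 to 0.0944), and with the 3′ minus 5′ covariate (adjusted p = 0.206). Among 9 insulin signalling genes PDPK1 rose (0.40) and 5 fell, including the receptor INSR (-0.55) and IRS1 (-0.43), while IRS2 was not called. Of 7 sirtuins, SIRT6, SIRT2 (0.22) and SIRT3 (0.19) rose from baseline to week 4 and SIRT5 fell. Of 10 canalicular and flippase genes, ABCB11 (the bile salt pump, 1.10) and TMEM30A (the accessory flippase subunit, 0.52) rose from baseline to week 12. ATP8B1 fell by its leading probe set, but with the 3′ minus 5′ covariate this change was -0.11 (adjusted p = 0.693). The other ATP8B1 probe set did not follow the leading one, with r = -0.39 between them, and itself had r = -0.481 with the 3′ minus 5′ value. The lysosomal genes LIPA (0.55) and LAMP2 (0.48) rose over this interval and the membrane protein gene LAMP1 fell (-0.23), while NPC1 was not called (0.17 ± 0.07, adjusted p = 0.148).

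For each gene the most similar patterns were sought among 13625 leading probe sets of genes above the median, by Pearson r over the 36 arrays. HADHB lay nearest to HADHA (r = 0.828, and 0.891 after group means were taken away). CPT1A lay nearest to CPT2, the carnitine acyltransferase of the inner mitochondrial membrane (0.802), and PCK1, a rate-setting enzyme of gluconeogenesis (0.789). NPC1 lay nearest to SREBF1 (0.721), which encodes a lipogenic factor and hosts a copy of miR-33. IRS2 lay nearest to the immediate early gene JUNB (0.746) and to CEBPD (0.742), and CROT to AKR1B10 (0.702). PRKAA1 lay nearest to NAA30 (0.724) and OSBPL6 to RCAN2 (0.609). SIRT6 lay nearest to ELAVL3 (0.814), which dropped to 0.427 once group means were taken away. Among the 9 genes themselves HADHB followed PRKAA1 (0.592) and CPT1A (0.554), CPT1A and NPC1 ran opposite (-0.436), and CROT and HADHB were unrelated across the arrays (-0.04).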

How the data were processed

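RNA of 36 liver biopsies was measured on human HG-U133 Plus 2.0 arrays. The authors deposited log2 values per probe set, made with RMA per the submitters' processing notes. Its version, and whether all arrays were normalized at once, is not stated in the labels or notes used here. Such a normalization removes a shift shared by most transcripts. No scanner files were used here, and the number of arrays limits the precision. The deposited values carried 2 decimals. Of the probe sets, 41091 had 1 symbol in the platform annotation, 1801 had several and 11777 were not listed; 62 array controls were left out of the fit.

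All 36 arrays were fitted in limma 3.58.1 (R 4.3.3, statmod 1.5.0) with 6 group means and animal as a random block (estimated correlation 0.0846), for 15 comparisons, with Benjamini-Hochberg adjustment over 54613 probe sets within each. The fit was tested on simulated data. Every adjusted p comes from limma. Single values were also tested by exact two-sided permutation, of 924 assignments between arms or of signs within animals, which cannot give less than 0.0312 within an arm. The animal identifiers in the labels pair the arrays, and deviations of an animal's arrays from their group means had median correlations of 0.157, 0.176 and 0.218 between times.

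All 9 genes are named by the rule, each by its probe set of highest mean, with the others by value or range of their differences between arms and by their calls. Pathway lists covered carnitine transfer, mitochondrial and peroxisomal oxidation and its regulators, AMP-activated kinase, insulin signalling, sirtuins, lysosomal cholesterol export, oxysterol-binding proteins, canalicular genes, miR-33 hosts and sterol exporters. At week 12 the arm medians of the lists not given above were 0.06 for peroxisomal oxidation, 0.01 for its regulators, -0.01 for AMP-activated kinase, -0.08 for insulin signalling, 0.03 for sirtuins, -0.06 for lysosomal export, -0.03 for canalicular genes, -0.36 for the hosts and 0.10 for the sterol exporters. The genes and lists were chosen with earlier results of these data known. Alternatives were animal as a fixed block, no block, a filter on low means, 1 probe set per gene, a robust trended fit, median centring, quantile normalization, the 3′ minus 5′ covariate, leaving out the week 4 array of control animal 1, only the times compared, and each animal left out in turn. Leaving out the week 12 array of control animal 5 or the week 4 array of anti-miR-33 animal 5 was added after seeing the data.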

Additional observations from a re-analysis of the deposited data

Results flagged for a closer look

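In 4 of the 54 groups of 6 arrays examined (9 leading probe sets in 6 groups) a single array lay far from the others by Dixon's test, which chance flags in about 1 group of 20. For CROT at week 4, anti-miR-33 animal 3 had a log2 value of 8.85, and the nearest of the other anti-miR-33 animals had 8.51. This array raised the arm difference at week 4, which reached 0.15 at its lowest when single animals were left out. For NPC1 at week 4, anti-miR-33 animal 1 had 6.93, with the nearest other at 6.81. For SIRT6 at week 4, anti-miR-33 animal 6 had 6.64, with the nearest other at 6.80. For ATP8B1 at baseline, anti-miR-33 animal 1 had 8.31, with the nearest other at 8.93. For 0 of the 9 genes did all animals of the arms move opposite ways, or did the change differ between arms after adjustment.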

How the results depend on the processing

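The counts of the 26 probe sets called between arms, or for a change that differed between arms, were 0 in all 6 comparisons under each of the 23 or 24 settings run (141 counts). Counts over time moved. From baseline to week 4 the 1 call in anti-miR-33 animals was 0 with the 3′ minus 5′ covariate, the 2 in control animals were 1 with 1 probe set per gene, and the 3 over both arms were 5 with animal as a fixed block (replicate block). From baseline to week 12 the 2 calls in anti-miR-33 animals were 0 with the covariate. The 1 in control animals was 2 with the replicate block and 0 without a block, with quantile normalization, with the covariate and without the week 12 array of control animal 5, an alternative chosen after seeing the data. The 2 over both arms were 1 without a block and 0 with the covariate. From week 4 to week 12 the 0 in anti-miR-33 animals were 2 with the replicate block and 1 with the filter or 1 probe set per gene, and the 2 over both arms were 4 with the replicate block or the filter. Leaving out an animal gave 0 to 1 calls in anti-miR-33 animals, 1 to 2 in control animals and 2 to 3 over both arms from baseline to week 4, and 1 to 2, 0 to 1 and 1 to 2 from baseline to week 12. From week 4 to week 12 it gave 0 to 1 in anti-miR-33 animals and 1 to 3 over both arms. For ATP8B1 the covariate turned the change from baseline to week 4 to 0.14 in anti-miR-33 animals and 0.10 over both arms. Fewer probe sets or arrays enter some settings; otherwise the cause was not tested. The 34 single values with an unadjusted p under 0.05 gave 811 refits, of which 747 kept direction and side of the threshold, 41 became weaker, 21 stronger and 2 reversed. Of 101 others, 47 changed sign under at least 1 setting. Leaving out the week 4 array of anti-miR-33 animal 5, also chosen after seeing the data, changed 0 of the counts. Human probes on monkey RNA and 6 animals per arm limit all values.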
